A study of Rattus norvegicus with 6 samples.

Results

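The enzymes that write and erase marks on histones and DNA were followed in mesenchymal stem cells from the marrow of wild-type rats, adherent cells of the stroma that can form bone, fat and cartilage. Every sample spent 7 days in a medium for neural differentiation, 3 of them with DMSO (CK) and 3 with CYSP, an agent that the labels do not describe further. Members were the genes of the deposited table whose symbol starts with Kdm, Kmt, Hdac, Sirt, Dnmt, Prmt, Kat or Setd, or with Tet and a digit, together with Ezh1, Ezh2, Suv39h1, Suv39h2, Ehmt1, Ehmt2 and Dot1l. The 5 katanin genes, whose symbols start with Katn, were left out. This gave 91 of 23091 genes, of which 51 encode writers and 40 erasers. Of the 91, 81 had enough counts to be tested, 3 stayed under the count filter and 7 had no count in any sample.

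Writers place chemical groups on histones or DNA, and erasers take them off. Lysine and arginine methyltransferases and DNA methyltransferases use S-adenosylmethionine as the methyl donor, and lysine acetyltransferases use acetyl-CoA. Most lysine demethylases and the TET enzymes, which oxidise methylcytosine, are dioxygenases that need iron, oxygen and 2-oxoglutarate, whereas the sirtuins consume NAD and the other histone deacetylases (HDACs) use zinc. Several members carry the family name but act elsewhere, among them the mitochondrial sirtuins Sirt3, Sirt4 and Sirt5 and the actin histidine methyltransferase Setd3. The amount of an enzyme's messenger RNA says nothing about the marks themselves, which were not measured.

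Total counts lay between 15060933 and 17244700 per sample, so that the upper limit for a gene without counts, 3 counts, was 0.174 to 0.199 CPM (the counts of a gene scaled to a common library size). This limit covers counting error only. It rests on total counts alone, without the TMM scaling of the other CPM values (described under processing below). The members together held 0.396% to 0.41% of all counts in CK and 0.354% to 0.357% in CYSP. Nothing in the labels ties the 3 samples of a group to separate cultures or animals, so p-values reflect only how these samples vary, possibly for technical reasons. The labelled cell type was checked against 12 stromal markers, of which 6 were higher in CYSP and 5 lower, and their summed level was 86800 to 89500 CPM in CK and 41000 to 42500 CPM in CYSP. Most of that sum came from Col1a1 (40700 CPM in CK and 9670 CPM in CYSP), Col1a2 (25800 and 5320) and Col3a1 (19700 and 24700). Apart from Col3a1, the markers that rose were Pdgfra, Thy1, Eng, Nt5e and Cxcl12. Those that fell, apart from Col1a1 and Col1a2, were Pdgfrb (624 CPM in CK and 269 CPM in CYSP), Mcam (36.5 and 12.4) and Vcam1 (7.52 and 4.96). Of 15 macrophage and leukocyte markers, none of them at 0 in all samples, 11 were lower in CYSP and 2 higher, and their sum was 1910 to 2160 CPM in CK and 705 to 714 CPM in CYSP. Lyz2 (883 CPM in CK and 108 CPM in CYSP) and Adgre1 (554 and 212) made up most of this sum in CK. The markers that rose were Cd163, from 0.0411 to 16.6 CPM, and Mrc1, from 48.7 to 97.4 CPM. Of 25 proliferation markers, none of them at 0, 22 were lower and 1 higher, and their sum was 1450 to 1600 CPM in CK and 758 to 775 CPM in CYSP. Of 6 endothelial markers 3 were tested, 2 higher and 1 lower, Emcn was at 0, and the sum was 1.51 to 2.32 CPM in CK and 2.57 to 4.1 CPM in CYSP. Of 13 neuronal markers 5 were tested, 3 higher and 2 lower, Rbfox3 and Elavl4 were at 0, and the sum was 16.4 to 17.5 CPM in CK and 127 to 135 CPM in CYSP. Most of the CYSP sum came from Snap25 (0.0201 CPM in CK and 48.8 CPM in CYSP), Nefh (1.94 and 39.6) and Tubb3 (8.67 and 37.8). Map2 and Dcx were lower, and Nefl, Nefm, Syp, Syt1, Stmn2 and Gap43 stayed under the count filter. Of 7 astrocyte markers 5 were tested, 4 higher and 1 lower, Aqp4 was at 0, and the sum was 319 to 336 CPM in CK and 2100 to 2150 CPM in CYSP. Gja1 made up most of this sum, at 297 CPM in CK and 2070 CPM in CYSP. Gfap, which was not tested, had 10 counts over the CK samples and 1 over the CYSP samples. In bulk RNA, fewer cells of a type and less RNA per cell cannot be told apart.

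Writers were mostly lower in CYSP, and erasers went in both directions. Of 43 tested writers 26 fell, 4 rose and 13 did not pass the test (edgeR's quasi-likelihood test, Benjamini-Hochberg adjusted p under 0.05). Of 38 tested erasers 15 fell, 16 rose and 7 did not pass. The median log2 fold change, CYSP against CK, was -0.3 for writers and -0.02 for erasers, against 0 for all 12623 genes tested. Over all members 20 rose and 41 fell, which is 24.7% and 50.6% of those tested. Among all tested genes 38.2% rose and 37.8% fell, together 76.1%. The shares were 9.3% and 60.5% for writers and 42.1% and 39.5% for erasers, so the erasers lay near all genes. Every count of rises and falls above and below, for families, partner lists and markers, is to be read beside the shares of all genes. Of the 81 members, 60 (74.1%) had no overlap between the samples of the groups, against 77% of all tested genes. At least 2-fold changes were called in 4 members that rose and 9 that fell, which is 16% of the members tested against 27.8% of all genes and 21.1% of the 8237 genes in the members' range of expression (their 10th to 90th percentile of CPM). The share was 6.98% for writers and 26.3% for erasers. The median absolute log2 fold change was 0.34 for writers, 0.61 for erasers and 0.53 for all genes. The replicate spread was small, with a common biological coefficient of variation of 0.0393, so that differences well under 1.5-fold passed. If that coefficient is set to 0.2 instead, 12 members rose and 25 fell, and at 0.4 the counts were 3 and 5. Over all 12623 tested genes the counts were 3102 higher and 2801 lower at 0.2, and 1496 and 1209 at 0.4.

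**Figure D1:**
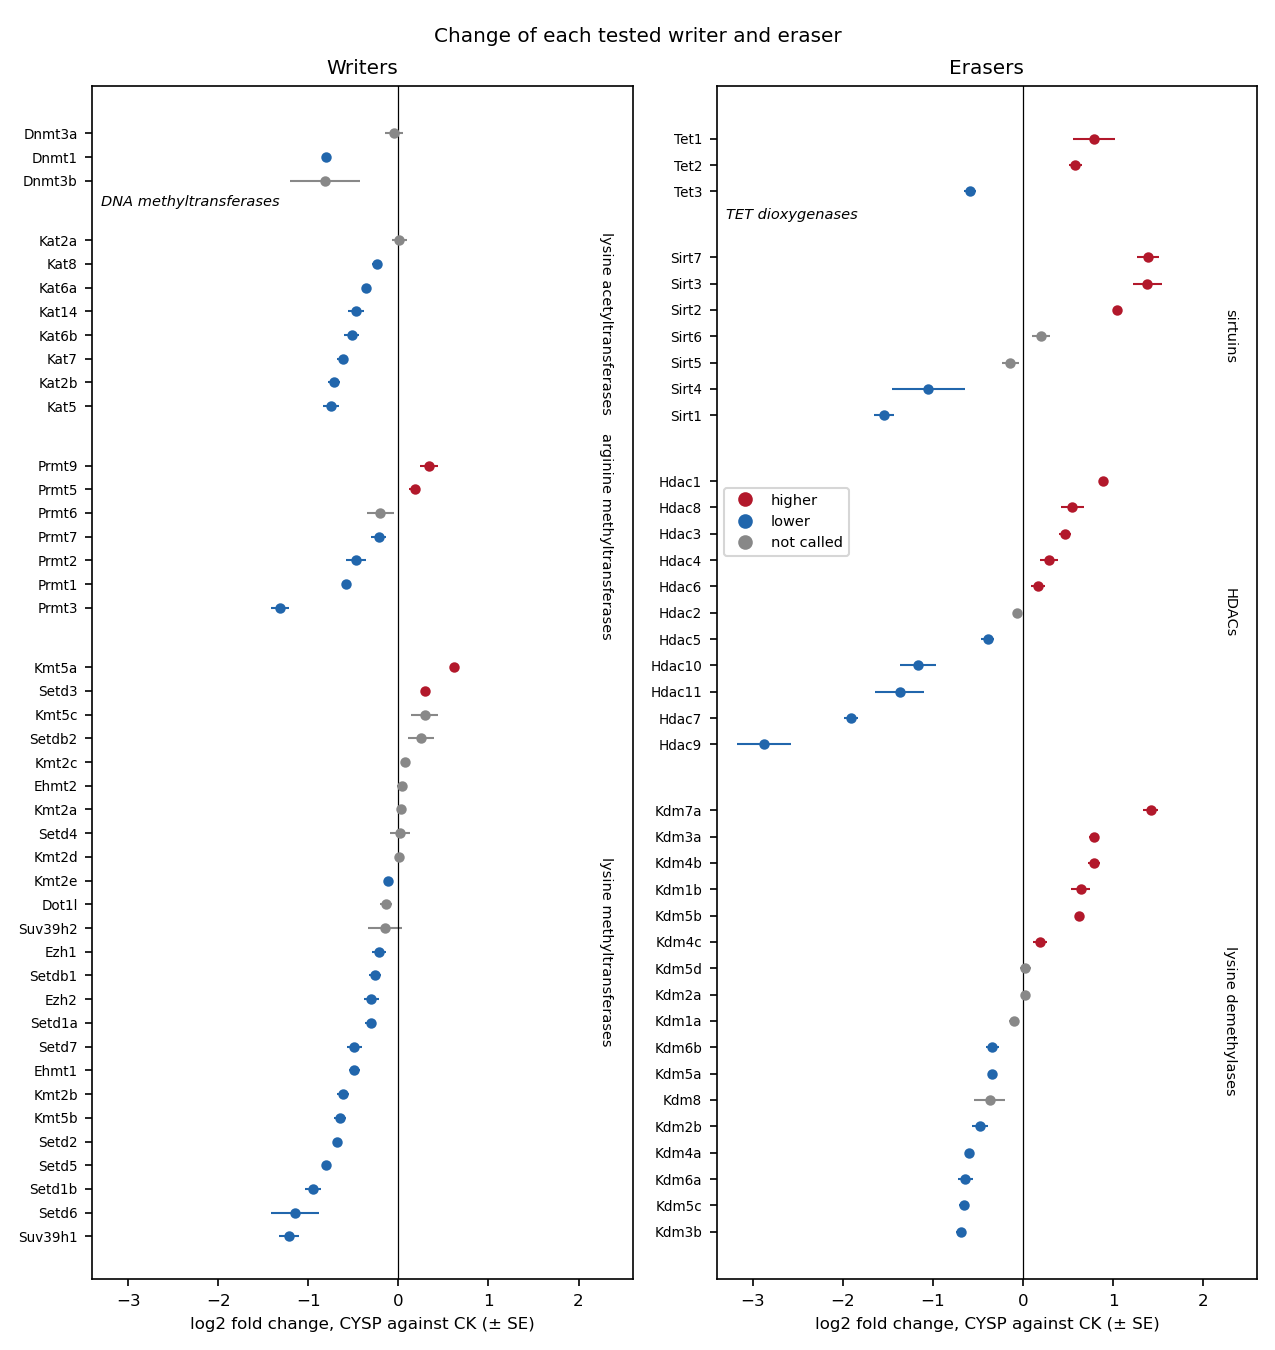
Log2 fold change of each tested writer (left) and eraser (right), CYSP against CK, with its standard error, grouped by family. Red points rose, blue points fell and grey points did not pass the test; the writers lie mostly to the left of 0, from -1.32 to 0.62, and the erasers on both sides, from -2.88 to 1.42.

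**Figure D2:**
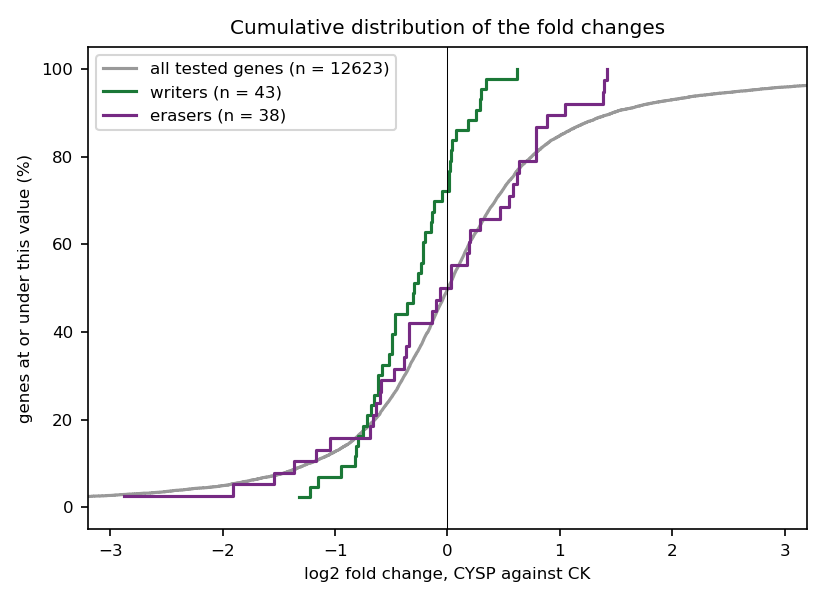
Cumulative share of genes (vertical axis, percent) at or under each log2 fold change (horizontal axis) for the 43 tested writers, the 38 tested erasers and all 12623 tested genes. The curve of the writers lies to the left of the other curves around its median of -0.3, and that of the erasers crosses 0 near its middle.

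The lysine methyltransferases were the largest family, with 29 members of which 25 were tested, 14 fell, 2 rose and 9 did not pass. The writers of H3K4 methylation, a mark of active promoters and enhancers, are the KMT2 and SETD1 enzymes. Setd1b, which trimethylates H3K4 at promoters, had 33.5, 38 and 31.9 CPM in the CK samples and 19.1, 15.8 and 18.4 CPM in the CYSP samples. The groups did not overlap, and the log2 fold change was -0.95 (SE 0.086, edgeR adjusted p = 8.6e-17). Its paralog Setd1a had means of 55.9 ± 2.91 CPM in CK and 45.1 ± 1.96 CPM in CYSP (± SD, with n = 3 in each group here and below) and Kmt2b from 46.4 ± 1.3 to 30.3 ± 1.75 CPM, both called lower. Kmt2a, Kmt2c and Kmt2d, the large enzymes of the same group, did not pass, with log2 fold changes of 0.027, 0.073 and 0.0096. Kmt2c passed without CK replicate 1, at 0.11 (edgeR adjusted p = 0.0498). Summed per length, these 6 genes had 38.3 to 41.4 FPKM in CK, a fragment count scaled for gene length and depth, and 31.9 to 33.5 FPKM in CYSP. Kmt2e, a relative without clear enzyme activity, had -0.12 (adjusted p = 0.0185). That call ended with DESeq2 (adjusted p = 0.0634), without CK replicate 1 (0.143), without CYSP replicate 1 (0.205) and without CYSP replicate 3 (0.0606).

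Among the writers of H3K9 methylation, the mark of heterochromatin, Suv39h1 had the largest change. Its levels were 20.6, 22.5 and 22.2 CPM in CK and 9.72, 9.33 and 8.94 CPM in CYSP. Every CYSP sample lay below every CK sample, with a log2 fold change of -1.22 (SE 0.11, edgeR adjusted p = 1.95e-17). A second identifier with the symbol Suv39h1 had no count. The paralog Suv39h2 was at 4.85 ± 0.668 CPM in CK and 4.37 ± 0.594 CPM in CYSP, with overlapping samples (adjusted p = 0.478). Ehmt1 and Ehmt2, which form the dimer that dimethylates H3K9, differed in their calls. Ehmt1 fell from 58.9 ± 1.69 to 41.8 ± 1.24 CPM, while Ehmt2 had 73.1 ± 3.83 and 75 ± 3.83 CPM and did not pass. Whether these paralogs differ in their change was not tested. Setdb1, which trimethylates H3K9 at retroelements, fell from 44.6 ± 1.03 to 37.4 ± 2.55 CPM, and Setdb2 did not pass (log2 fold change 0.25).

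Ezh1 and Ezh2, the alternative catalytic subunits of Polycomb repressive complex 2 (PRC2), which methylates H3K27, changed little. Ezh2 had 24.4, 27.3 and 29.2 CPM in CK and 21.2, 21 and 23.4 CPM in CYSP, a log2 fold change of -0.3 (SE 0.086, edgeR adjusted p = 0.00115). The highest CYSP sample lay just under the lowest CK sample. Ezh1 had 30.7 ± 1.43 and 26.3 ± 1.79 CPM, a log2 fold change of -0.22 (adjusted p = 0.00883), and its call ended without CK replicate 1 (adjusted p = 0.0521) and without CYSP replicate 2 (0.0805). Of 10 listed PRC2 partners 7 fell, 2 rose and Suz12, a core subunit, did not pass, at 79.1 ± 0.971 and 84.8 ± 10.3 CPM. Eed, the subunit that reads the mark and activates the enzyme, fell from 42.5 ± 0.949 to 16.7 ± 0.772 CPM, and the accessory subunit Phf19 from 6.8 ± 0.525 to 2.04 ± 0.293 CPM. Epop, another accessory subunit, rose from 1.82 ± 0.22 to 6.98 ± 1.03 CPM. Of 18 PRC1 genes, whose complexes bind and ubiquitinate the same chromatin, 5 rose, 4 fell and 9 did not pass. Cbx7, a reader of H3K27 methylation, rose from 1.11 ± 0.38 to 20.9 ± 1.03 CPM (log2 fold change 4.22), and Cbx2 from 4.48 ± 0.513 to 9.24 ± 0.116 CPM.

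Setd2, the enzyme that trimethylates H3K36 behind elongating polymerase, fell from 151 ± 6.44 to 93.9 ± 3.35 CPM (log2 fold change -0.68, SE 0.043). Setd5, a SET domain protein and the most highly counted member in CK, had 197, 184 and 181 CPM there and 102, 105 and 113 CPM in CYSP. The groups did not overlap, and the log2 fold change was -0.81 (SE 0.042, edgeR adjusted p = 6.56e-30). The H4K20 methyltransferases moved apart. Kmt5a, which adds the first methyl group, rose from 131 ± 5.18 to 202 ± 4.67 CPM, and its other identifiers in the table had no count. Kmt5b, which adds the further groups, fell from 43.2 ± 1.41 to 27.6 ± 2.1 CPM. Kmt5c, its paralog, had 6.83 ± 1.25 and 8.37 ± 0.707 CPM and did not pass, but passed without CK replicate 1 (adjusted p = 0.0162). Dot1l, the H3K79 methyltransferase, did not pass (log2 fold change -0.14, adjusted p = 0.0637), but passed without CK replicate 2 (0.0158) and without CYSP replicate 1 (0.0336).

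The remaining lysine methyltransferases act largely on proteins other than histones. Setd6, which methylates the NF-kappaB subunit RelA, had 3.05, 3.89 and 4.11 CPM in CK and 1.88, 1.01 and 2.05 CPM in CYSP (edgeR log2 fold change -1.15, SE 0.27, adjusted p = 8.15e-05). These are low levels, and the groups did not overlap. Setd7 fell from 29.4 ± 0.839 to 21 ± 2.14 CPM. Setd3, the actin histidine methyltransferase, rose from 76 ± 3.83 to 93.7 ± 1.89 CPM, and Setd4 did not pass (log2 fold change 0.02).

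Of 7 tested arginine methyltransferases 4 fell, 2 rose and 1 did not pass. Prmt3, a cytoplasmic enzyme of ribosomal proteins, had 24.4, 22.2 and 26.5 CPM in CK and 10.5, 9.39 and 9.35 CPM in CYSP. This was the strongest fall among the writers, 2.5-fold, with a log2 fold change of -1.32 (SE 0.1, edgeR adjusted p = 1.55e-19). Prmt1, the main enzyme of asymmetric dimethylation and the member with the highest level per length in CK, fell from 92 to 58.1 FPKM. In CPM it fell from 105 ± 2.27 to 70.7 ± 3.55 (log2 fold change -0.58). A second identifier with this symbol had at most 14 counts in a sample and was not tested, so a small part of its reads may be split. Prmt5, the main enzyme of symmetric dimethylation, had 52 ± 1.09 and 58.9 ± 4.37 CPM (log2 fold change 0.18, adjusted p = 0.00387). Its call ended without CYSP replicate 1 (adjusted p = 0.0924) and with library size only (0.117). The share of Prmt1 in the summed FPKM of the family was 61.9% to 63% in CK and 52.2% to 56.7% in CYSP, and that of Prmt5 14% to 14.4% and 20.1% to 23.2%. Prmt2 fell from 17.3 ± 0.56 to 12.5 ± 1.96 CPM, and Prmt9, which methylates a splicing factor, rose from 15.3 ± 1.26 to 19.3 ± 1.28 CPM. Prmt7, an enzyme of monomethylation, had -0.22 (adjusted p = 0.0157), a call that ended with DESeq2 (0.0545), without CK replicate 1 (0.0624), without CK replicate 3 (0.0598) and without CYSP replicate 2 (0.0608). Prmt6 did not pass. Prmt8, the brain-enriched member of the family, had 2 counts in CYSP replicate 2 and none elsewhere.

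Of 8 lysine acetyltransferases 7 fell, none rose and Kat2a did not pass. The count of 0 for rises was the same at an unadjusted p under 0.05 and with DESeq2. Kat5 (also known as Tip60), an acetyltransferase of H4 and of DNA repair proteins, had 27.2, 28.3 and 32.3 CPM in CK and 17, 18.5 and 16.9 CPM in CYSP (edgeR log2 fold change -0.75, SE 0.088, adjusted p = 6.05e-12). Kat2b, also known as PCAF, went from 52.8, 57.4 and 53.1 CPM to 33.7, 31.4 and 34.3 CPM, a log2 fold change of -0.72 (SE 0.065, adjusted p = 9.22e-17). Its paralog Kat2a, also known as GCN5, had 29.9 ± 3.68 and 30.1 ± 1.6 CPM, with overlapping samples. Kat7, which acetylates H3 and H4 around replication origins, fell from 62.5 ± 2.95 to 40.7 ± 1.93 CPM. All 5 enzymes of the MYST group fell, by -0.24 for Kat8, the H4K16 acetyltransferase, to -0.75 for Kat5, with Kat6a at 101 ± 0.728 and 78.4 ± 1.87 CPM and Kat6b at 30.6 ± 1.07 and 21.3 ± 2.11 CPM. Kat14, outside that group, fell by 0.47 on the log2 scale. Summed over the 8 genes, levels were 115 to 119 FPKM in CK and 80.8 to 84.8 FPKM in CYSP. Of 34 genes for partners in their complexes 23 fell and 2 rose, among them the scaffold genes Jade3 (log2 fold change -1.7) and Epc2 (-1.4). Of 7 genes for acetyl-lysine readers 5 fell and 1 rose. Crebbp, a general acetyltransferase outside the members, fell from 59.3 ± 2.07 to 32 ± 1.19 CPM.

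Dnmt1, which copies DNA methylation to the new strand after replication, was the DNA methyltransferase that changed. It had 101, 95.9 and 98.3 CPM in CK and 60.3, 51.8 and 56.7 CPM in CYSP (edgeR log2 fold change -0.8, SE 0.052, adjusted p = 3.09e-24). Every CYSP sample lay below every CK sample. Dnmt3a, which sets new methylation, had 18.6 ± 1.32 and 17.9 ± 1.45 CPM and did not pass. Dnmt3b was low and scattered, at 1.81, 1.32 and 1.69 CPM in CK and 1.34, 0.203 and 1.16 CPM in CYSP (log2 fold change -0.82, adjusted p = 0.0514). It passed without CK replicate 2 (0.0419), without CYSP replicate 1 (0.017) and without CYSP replicate 3 (0.0465). Dnmt3c and Dnmt3l had no count in any sample. The share of Dnmt1 in the family's summed FPKM was 76.5% to 79% in CK and 67.1% to 68.8% in CYSP. Uhrf1, which brings Dnmt1 to hemimethylated DNA, fell from 47.1 ± 1.66 to 21 ± 1.55 CPM, and of the 11 listed DNA methylation partners 6 fell and 1 rose. Proliferation markers fell in the same samples, as counted above, and Mki67, the antigen of cycling cells, went from 270 ± 14.4 to 92.6 ± 5.37 CPM. The part of the proliferation and leukocyte markers in the changes of Dnmt1, Suv39h1 and Ezh2 was not tested.

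Of the 11 tested HDACs 5 rose (45.5%), 5 fell (45.5%) and 1 did not pass, against 38.2% and 37.8% of all tested genes. Of the 4 class I enzymes, the nuclear catalytic subunits of the NuRD, Sin3, CoREST and NCoR corepressor complexes (Hdac8 acts alone), 3 rose and Hdac2 did not pass. Hdac1 had 97.2, 92.9 and 96.1 CPM in CK and 176, 181 and 175 CPM in CYSP. The groups lay far apart, and the log2 fold change was 0.89 (SE 0.041, edgeR adjusted p = 3e-33). Its close paralog Hdac2 had 121, 122 and 130 CPM in CK and 115, 121 and 119 CPM in CYSP, with overlapping samples (log2 fold change -0.069, adjusted p = 0.129). Scaling by library size only, which moves all log2 fold changes down, called Hdac2 lower at -0.15 (adjusted p = 0.000932). The fits on FPKM also called Hdac2 lower at -0.15 (limma-trend adjusted p = 0.00995 to 0.0188). The authors' deposited table has it lower at -0.15 (false discovery rate 0.0178), with 3755 genes higher and 5052 lower over all genes. Over all genes the median log2 fold change was -0.08 with library size only and -0.07 to -0.09 in the FPKM fits. These calls of Hdac2 are thus not independent of a shared downward lean. Per length, Hdac2 was above Hdac1 in CK (65.1 against 47.6 FPKM) and below it in CYSP (58.7 against 83.6 FPKM). The share of Hdac1 in the summed FPKM of the HDACs was 26.5% to 27.5% in CK and 42% to 42.4% in CYSP, and that of Hdac2 36% to 37.7% and 28.4% to 30.6%. Hdac3, the enzyme of the NCoR complex, rose from 33.9 ± 0.617 to 46.9 ± 2.65 CPM, and Hdac8 from 8.57 ± 0.581 to 12.5 ± 0.994 CPM.

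The class IIa enzymes have weak catalytic activity and act as signal-dependent repressors of MEF2 factors, and 3 of the 4 fell. Hdac7, which is known for its part in endothelial cells and thymocytes, had 50.2, 50.6 and 48.9 CPM in CK and 13.4, 12.6 and 13.7 CPM in CYSP. This is a log2 fold change of -1.91 (SE 0.079, edgeR adjusted p = 9.64e-36). Hdac9, known from muscle and brain, had 5.42, 3.45 and 6.58 CPM in CK and 0.85, 0.811 and 0.41 CPM in CYSP, the strongest fall of all members (log2 fold change -2.88, SE 0.3, adjusted p = 3.81e-14). In both genes every CYSP sample lay under every CK sample. Hdac5 fell from 38.1 ± 2.05 to 29 ± 0.801 CPM. Hdac4 had 15.7 ± 1.27 and 19.1 ± 2.12 CPM (log2 fold change 0.29, adjusted p = 0.00862), and its call ended without CK replicate 2 (0.0668), without CYSP replicate 2 (0.105) and with library size only (0.0621). The summed level of the 4 genes was 27.2 to 28.1 FPKM in CK and 14.7 to 15.3 FPKM in CYSP. The leukocyte marker sum given above fell in these samples. The endothelial sum was very low, at 1.51 to 2.32 CPM in CK and 2.57 to 4.1 CPM in CYSP, with Pecam1 and Cdh5 under the count filter. The part of either cell type in the changes of Hdac7 and Hdac9 was not tested.

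The remaining HDACs act mainly outside chromatin, and Hdac1l had no count in any sample. Hdac10, a polyamine deacetylase, had 6.66, 7.03 and 6.4 CPM in CK and 3.89, 1.96 and 3 CPM in CYSP (edgeR log2 fold change -1.17, SE 0.2, adjusted p = 1.9e-07). Hdac11, the class IV enzyme, had 4.18, 3.96 and 3.08 CPM in CK and 1.21, 1.42 and 1.71 CPM in CYSP (log2 fold change -1.37, SE 0.27, adjusted p = 4.27e-06). Neither gene had overlapping groups, and both were low. Hdac6, the tubulin deacetylase, had 28.2 ± 0.267 and 31.8 ± 0.264 CPM (log2 fold change 0.17, adjusted p = 0.0329). Its call ended with DESeq2 (0.103) and when any sample other than CYSP replicate 3 was left out, at adjusted p = 0.0517 to 0.0798. Of 25 genes for partners in deacetylase complexes 14 fell and 6 rose. Chd3, a remodelling helicase of NuRD, fell from 374 ± 4.71 to 70.1 ± 2.5 CPM, and Sap30, a Sin3 subunit, rose from 5.28 ± 0.62 to 15.1 ± 0.998 CPM.

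**Figure D3:**
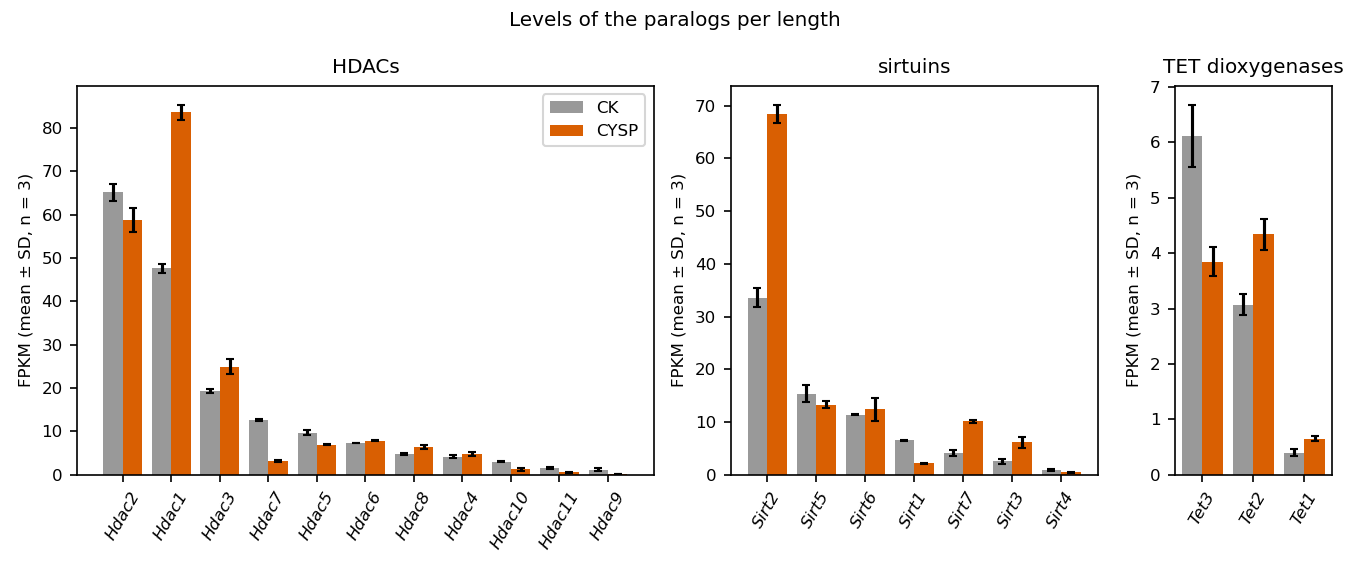
Level per length (FPKM, mean with SD as error bars, 3 samples per group) of the HDACs, sirtuins and TET enzymes in CK (grey) and CYSP (orange), ordered by the level in CK. The order of Hdac2 and Hdac1 in CK is turned in CYSP, Sirt2 leads the sirtuins in both groups, and Tet2 lies above Tet3 in CYSP.

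Of the 7 sirtuins 3 were higher (42.9%), 2 lower (28.6%) and 2 not called, against 38.2% and 37.8% of all tested genes. Sirt1, a nuclear deacetylase of histones and transcription factors, had 24, 24 and 22.2 CPM in CK and 8.08, 8.11 and 7.99 CPM in CYSP. The groups did not overlap, and the log2 fold change was -1.54 (SE 0.11, edgeR adjusted p = 3.62e-22). Sirt2, a mainly cytoplasmic tubulin and histone deacetylase that is abundant in myelin, had 70.9, 65.9 and 64.7 CPM in CK and 143, 139 and 137 CPM in CYSP (log2 fold change 1.05, SE 0.046, adjusted p = 1.65e-34). Sirt7, a nucleolar H3K18 deacetylase, rose from 7.79, 6.09 and 6.58 CPM to 18.5, 17.7 and 17.5 CPM (log2 fold change 1.39, SE 0.12, adjusted p = 1.63e-17). All 3 CYSP samples lay above all CK samples for Sirt2 and Sirt7. Sirt3, the main mitochondrial deacetylase, had 5.08, 3.77 and 4.05 CPM in CK and 12.9, 8.92 and 11.9 CPM in CYSP (log2 fold change 1.38, SE 0.16, adjusted p = 1.2e-12), also without overlap.

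Sirt4, another mitochondrial sirtuin, was low, at 1.36 ± 0.285 and 0.663 ± 0.231 CPM (log2 fold change -1.05, adjusted p = 0.0166). Its call ended with DESeq2 (0.0678), without CK replicate 1 (0.0915) and without CYSP replicate 1 (0.116). Sirt6, a chromatin-bound H3K9 deacetylase, had 18.4, 18.6 and 18.7 CPM in CK and 22.7, 17.2 and 24.2 CPM in CYSP and did not pass (adjusted p = 0.0566). The CYSP replicate 2 lay under all CK samples, and without it the gene was called higher (log2 fold change 0.34, adjusted p = 0.00209). Sirt5, a mitochondrial desuccinylase, did not pass (-0.14, adjusted p = 0.164) but was called lower without CK replicate 2 (-0.22, adjusted p = 0.0328). Within the family, the share of Sirt2 in the summed FPKM was 43.6% to 46% in CK and 58.9% to 62.2% in CYSP, and that of Sirt1 8.47% to 9.33% and 1.81% to 2.06%. Of 22 genes of cofactor metabolism 11 rose and 7 fell. Nampt, the rate-limiting enzyme of the NAD salvage on which sirtuins depend, rose from 69.6 ± 7.5 to 193 ± 6.3 CPM. Nmnat2, a neuron-enriched NAD synthase, had 11 counts over the CK samples and 743 over the CYSP samples.

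Of the 17 tested lysine demethylases 6 were higher (35.3%) and 7 lower (41.2%), near the 38.2% and 37.8% of all tested genes. Kdm7a, which removes methyl groups from H3K9 and H3K27, had 16.2, 14.9 and 14.9 CPM in CK and 40.4, 42.2 and 41 CPM in CYSP. This was the strongest rise of all members (edgeR log2 fold change 1.42, SE 0.081, adjusted p = 2.86e-27). Kdm3a and Kdm4b, demethylases of H3K9, rose as well: Kdm3a from 39.3, 39.6 and 39.9 CPM to 68.9, 73 and 62.9 CPM (log2 fold change 0.79, SE 0.06, adjusted p = 1.96e-20). Kdm4b went from 33.1, 33 and 32.6 CPM to 54.8, 59.2 and 56.9 CPM, the same log2 fold change of 0.79 (SE 0.063, adjusted p = 2.61e-19). In none of the 3 genes did the groups overlap. Their closest paralogs fell: Kdm3b from 75.4 ± 3.04 to 46.6 ± 1.12 CPM and Kdm4a from 108 ± 4.14 to 71.2 ± 0.776 CPM. Kdm4c had a log2 fold change of 0.19 (adjusted p = 0.0156), a call that ended with DESeq2 (0.0677), without CK replicate 1 (0.0992) and without CYSP replicate 2 (0.0904).

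The demethylases of H3K4 went both ways, with 2 higher, 2 lower and 2 not called. Kdm5b rose from 96.7 ± 2.43 to 148 ± 4.54 CPM, while its paralogs fell, Kdm5a from 116 ± 4.54 to 91.1 ± 1.26 CPM and Kdm5c from 91.7 ± 2.38 to 57.9 ± 5.01 CPM. Kdm5d, the Y-linked paralog of Kdm5c, had 41.1 ± 0.748 and 42 ± 2.17 CPM and did not pass. Kdm1a (LSD1), the flavin-dependent enzyme of the CoREST complex, had 64.7 ± 1.24 and 60.5 ± 4.1 CPM and did not pass, but was called lower under library size scaling (log2 fold change -0.18, adjusted p = 0.00244). Upper-quartile scaling (-0.12, edgeR adjusted p = 0.0486) and the fits on FPKM (limma-trend adjusted p = 0.0196 to 0.0318) also called Kdm1a lower. The authors' deposited table has Kdm1a lower at -0.18 (false discovery rate 0.016). The downward lean described for Hdac2 applies to the library size, FPKM and deposited values of Kdm1a too. Kdm1b, its paralog, rose from 10.3 ± 0.604 to 16 ± 1.4 CPM. Both Kdm6 enzymes, which demethylate H3K27, fell, Kdm6a from 29.5, 31.5 and 32.1 CPM to 17.9, 20.2 and 22 CPM (edgeR log2 fold change -0.64, SE 0.084, adjusted p = 2.81e-10) and Kdm6b from 42.6 ± 2.96 to 33.6 ± 2.19 CPM. Kdm7a, which also acts on H3K27, rose as described above, so the erasers of this mark did not move in 1 direction. Kdm2b, which recruits a PRC1 complex to CpG islands, fell from 27.2 ± 2.35 to 19.5 ± 1.42 CPM, and its paralog Kdm2a did not pass. Kdm4d was near the detection limit, with 8 counts over the CK samples and 10 over the CYSP samples, and was not tested. Kdm8 did not pass (log2 fold change -0.37, adjusted p = 0.0502) but was called lower without CK replicate 1 (0.0105), without CK replicate 2 (0.0139) and without CYSP replicate 1 (0.0287).

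Of the 3 TET enzymes Tet1 and Tet2 rose and Tet3 fell. Tet2 had 30, 26.6 and 28.1 CPM in CK and 39.6, 42.4 and 44.7 CPM in CYSP (edgeR log2 fold change 0.58, SE 0.072, adjusted p = 2.64e-11). Tet3 had 52.9, 44.8 and 45.7 CPM in CK and 34.2, 29.5 and 31.5 CPM in CYSP (log2 fold change -0.59, SE 0.07, adjusted p = 5.58e-12). Tet1 was low, at 2.38 ± 0.359 and 4.1 ± 0.299 CPM (log2 fold change 0.79, adjusted p = 0.00162). The groups did not overlap for any of them. Tet3 made up 63.1% to 64.9% of the family's summed FPKM in CK and 41.9% to 46.5% in CYSP, and Tet2 31.3% to 33% and 45.6% to 51%. The sum itself was 9.1 to 10.4 FPKM in CK and 8.58 to 9.06 FPKM in CYSP. FPKM values carry no TMM scaling, and this small difference was not tested. Gadd45b and Gadd45g, stress genes linked to active DNA demethylation, fell to low levels, Gadd45b from 68.5 ± 2.42 to 6.15 ± 0.595 CPM and Gadd45g from 62.4 ± 3.5 to 5.08 ± 0.444 CPM. Gadd45a, of the same family, had 44.9 ± 2.31 and 45.9 ± 2.73 CPM and did not pass.

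**Figure D4:**
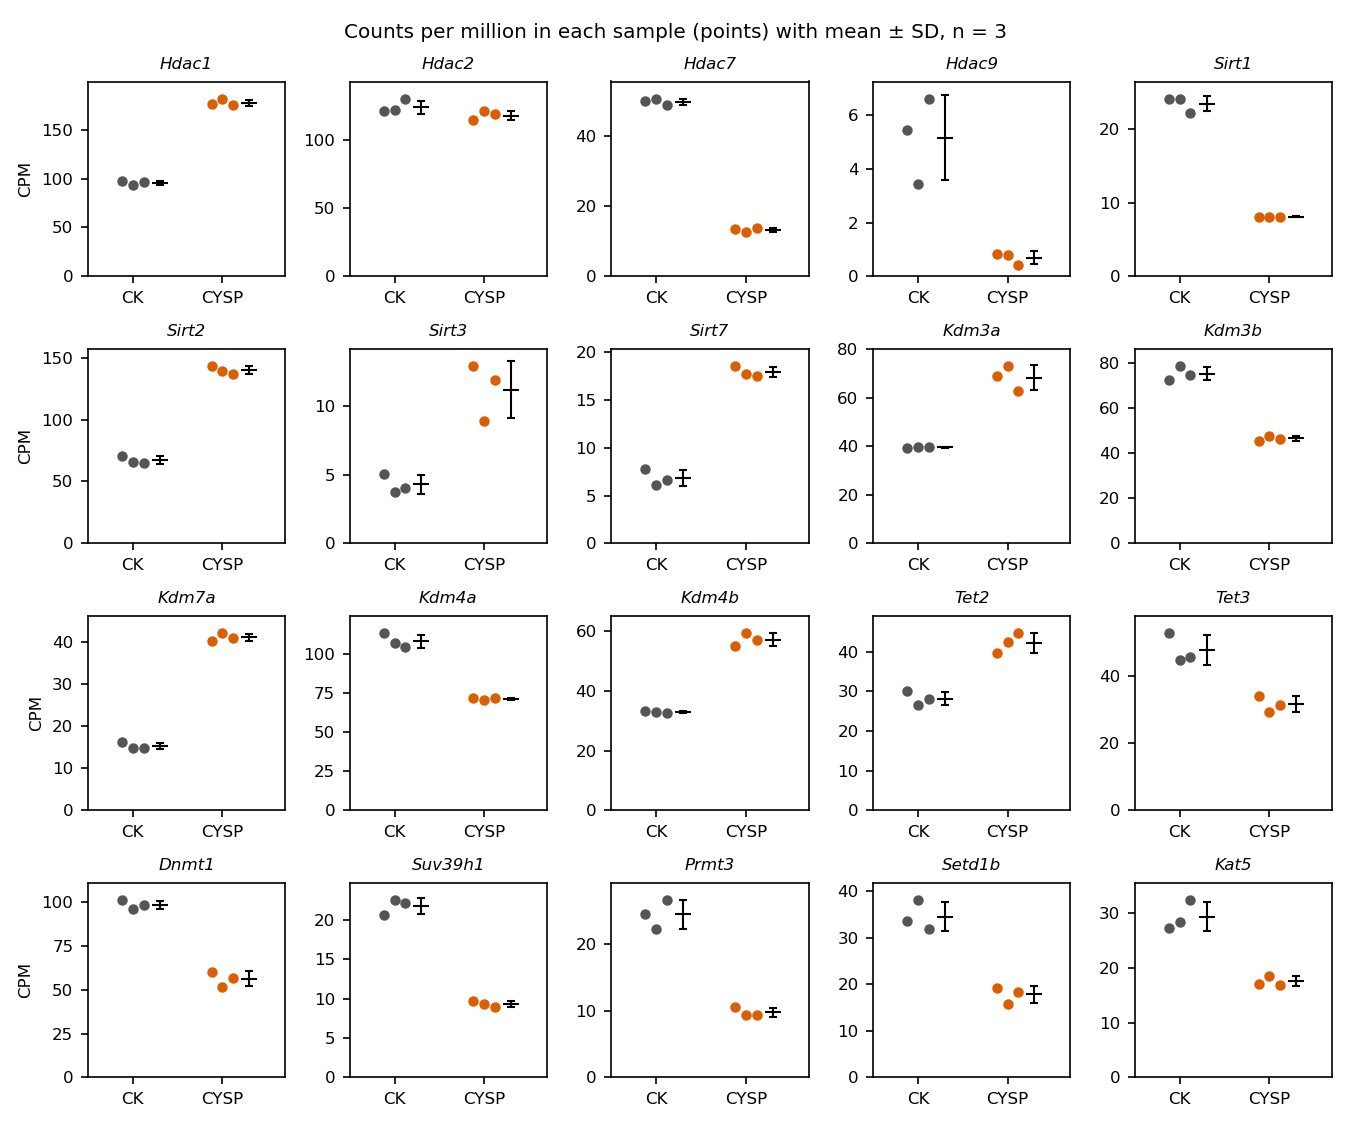
Level of 20 members in each sample (points, CPM; every axis starts at 0) with the mean and SD beside them, CK in grey and CYSP in orange, 3 samples per group. Apart from Hdac2, whose samples overlap, the points of CK and CYSP are separate in every panel.

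Because paralogous demethylases moved apart, the sequence before their annotated start sites was examined. The oxygen-dependent Kdm3a, Kdm4b and Kdm5b are known in other cells as genes induced by hypoxia-inducible factors, which bind the words ACGTG and GCGTG, and oxygen was not measured here. The windows below are the 250 bases before the most upstream RefSeq start in GRCr8, written 5′ to 3′ on the gene's strand, with these words on either strand in capitals. They are 4 demethylases that rose, 2 paralogs that fell, and Sirt1, which fell, chosen after their values were seen.
Kdm7a, chr4:68992980-68993229, minus strand: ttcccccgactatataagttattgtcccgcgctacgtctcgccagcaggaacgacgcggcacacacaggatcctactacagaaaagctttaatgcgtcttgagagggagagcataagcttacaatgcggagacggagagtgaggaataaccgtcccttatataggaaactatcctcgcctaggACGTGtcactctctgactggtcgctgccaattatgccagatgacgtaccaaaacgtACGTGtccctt
Kdm3a, chr4:105233371-105233620, minus strand: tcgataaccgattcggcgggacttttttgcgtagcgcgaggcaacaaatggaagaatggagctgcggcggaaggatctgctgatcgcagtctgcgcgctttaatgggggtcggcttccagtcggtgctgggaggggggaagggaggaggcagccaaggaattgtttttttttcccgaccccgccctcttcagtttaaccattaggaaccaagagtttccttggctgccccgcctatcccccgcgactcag
Kdm4b, chr9:1245653-1245902, plus strand: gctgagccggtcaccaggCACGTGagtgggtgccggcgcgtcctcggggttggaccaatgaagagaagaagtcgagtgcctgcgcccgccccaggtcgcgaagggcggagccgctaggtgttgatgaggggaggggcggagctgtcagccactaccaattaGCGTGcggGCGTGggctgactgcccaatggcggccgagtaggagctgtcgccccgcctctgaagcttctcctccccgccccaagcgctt
Kdm5b, chr13:48554147-48554396, plus strand: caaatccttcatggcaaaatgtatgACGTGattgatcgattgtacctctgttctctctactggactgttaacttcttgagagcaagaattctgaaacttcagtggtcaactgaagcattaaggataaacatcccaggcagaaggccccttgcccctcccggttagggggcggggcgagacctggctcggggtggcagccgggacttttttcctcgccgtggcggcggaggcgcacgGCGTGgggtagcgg
Kdm4a, chr5:137004913-137005162, minus strand: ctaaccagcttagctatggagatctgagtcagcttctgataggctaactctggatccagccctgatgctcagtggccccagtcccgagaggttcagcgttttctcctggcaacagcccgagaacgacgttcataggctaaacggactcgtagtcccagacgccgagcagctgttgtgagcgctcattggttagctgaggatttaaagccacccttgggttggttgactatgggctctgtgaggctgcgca
Kdm5c, chrX:24824624-24824873, plus strand: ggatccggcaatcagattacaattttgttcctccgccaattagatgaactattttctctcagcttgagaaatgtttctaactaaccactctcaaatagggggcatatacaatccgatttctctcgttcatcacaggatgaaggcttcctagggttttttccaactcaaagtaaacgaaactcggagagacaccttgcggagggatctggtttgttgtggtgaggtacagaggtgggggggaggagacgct
Sirt1, chr20:25305703-25305952, plus strand: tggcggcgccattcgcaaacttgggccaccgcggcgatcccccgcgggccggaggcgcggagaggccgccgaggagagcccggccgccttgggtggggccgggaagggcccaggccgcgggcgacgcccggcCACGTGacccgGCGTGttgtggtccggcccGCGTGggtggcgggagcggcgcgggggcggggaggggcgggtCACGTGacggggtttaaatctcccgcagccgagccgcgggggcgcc

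The windows of Kdm7a and Kdm5b held the words at 2 places and that of Kdm4b at 3 places, and those of Kdm4a and Kdm5c held none. The window of Kdm3a, which rose, also held none, and that of Sirt1, which fell, held them at 4 places. For Kdm7a 4 windows are listed and for Kdm3a 2, and only the most upstream of each was searched. Which start these cells use was not tested. Windows were found for 68 of the 81 tested members. At least 1 of the words was present in 70% of the windows of members that rose (14 of 20), 51.5% of those that fell (17 of 33) and 73.3% of those not called (11 of 15). Over all 27457 RefSeq genes with a window the share was 37.8%, and over the 68 members 61.8%. The words contain the dinucleotide CG, of which member windows held a median of 17 and all windows 6. A match is a description of the letters and not a binding site.

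**Figure D5:**
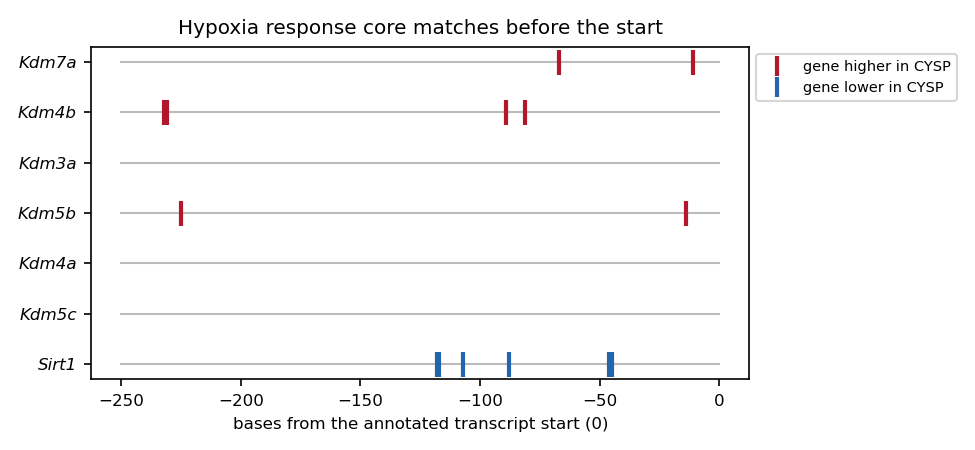
Places of the words ACGTG and GCGTG, on either strand, in the 250 bases before the most upstream annotated start (horizontal axis, bases from the start at 0) for 6 demethylases and Sirt1. Red ticks belong to genes higher in CYSP and blue ticks to genes lower in CYSP; Kdm3a, Kdm4a and Kdm5c have no tick.

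Enzymes of the same kinds with other names, such as the SMYD, NSD and p300 families, also fell more often than they rose, with 12 lower and 4 higher of 25 tested. Smyd3, a lysine methyltransferase, rose from 2.92 ± 0.285 to 7.66 ± 0.255 CPM. Of 10 tested genes for partners of the H3K4 methyltransferases 7 fell and 2 rose, with Hcfc1 at 169 ± 7.35 and 89.8 ± 1.87 CPM. In the authors' deposited table, 14 members were higher and 44 lower at a false discovery rate under 0.05, among them 1 writer higher and 27 lower, and 13 erasers higher and 17 lower. Over all genes, the authors' deposited table has 3755 higher and 5052 lower.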

How the data were processed

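RNA-seq of 6 samples, 3 CK and 3 CYSP, was analysed from 1 table. The authors deposited raw counts per gene and FPKM values per sample, per the file headers, and beside them the authors' mean FPKM per group, log2 fold changes, p-values and false discovery rates. The submitters' processing notes name fastp 0.18.0, HISAT2, StringTie 1.3.1 and RSEM. Neither the genome build nor the annotation, the counting tool or the authors' test is named in them, so these are not given in the sources used.

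Counts were filtered with filterByExpr (about 10 counts or more in at least 3 samples, the size of a group, and 15 in total). A gene could thus pass through a single group. Counts were then scaled by TMM and tested over all 12623 remaining genes with edgeR 4.0.16 in R 4.3.3. The quasi-likelihood test with robust dispersion was used, with Benjamini-Hochberg adjustment and a threshold of 0.05. CPM values are TMM-scaled. Levels of different members are compared in FPKM, except that Setd5 is ranked by its counts. Marker sums and the genes that lead them are in CPM, which is not scaled for gene length. FPKM values are as deposited, without TMM scaling. In them the median log2 fold change over all genes was -0.08 (pseudocount of 1), so the FPKM of a typical gene leans lower in CYSP. The sum over all genes was nevertheless higher there, at 464894 to 468133 FPKM against 395003 to 399288 FPKM in CK. Higher and lower always mean CYSP against CK. The fit was first run on simulated counts in which most genes were unchanged, unlike these data, where 76.1% of tested genes were called. That run cannot show how the fit behaves when most genes change. Symbols were matched with capitals as in the rule, and a digit was required only after Tet. Genes were described with full statistics if they were called with at least a 2-fold change and a mean of at least 1 CPM, were among the 3 largest called changes of their family, or belonged to a fixed set of well-known members. Members, lists and tests were chosen with earlier results of these data known. Alternatives used DESeq2 1.42.0, limma 3.58.1, other scalings and filters, FPKM with a pseudocount of 1 or 0.1, assumed coefficients of variation and leaving out each sample. Samples of the same group differed by more than sampling noise, so none was counted as a duplicate. Promoter windows came from RefSeq sequences of GRCr8, matched by symbol.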

Additional observations from a re-analysis of the deposited data

How the results depend on the processing

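The main counts were 20 members higher and 41 lower, 4 and 26 for writers and 16 and 15 for erasers. Over all tested genes they were 4828 higher and 4772 lower. With an assumed coefficient of variation of 0.2 there were 12 members higher and 25 lower, and for writers 1 and 14. All tested genes gave 3102 higher and 2801 lower at that setting. With 0.4 there were 3 higher and 5 lower, for writers 0 and 1 and for erasers 3 and 4, against 1496 and 1209 over all tested genes. With at least a 2-fold change required, 4 members were higher and 9 lower, for writers 0 and 3 and for erasers 4 and 6. All tested genes then gave 1917 higher and 1598 lower. Leaving out each sample in turn gave 18 to 20 members higher and 38 to 45 lower, 3 to 6 writers higher and 23 to 28 lower, and 14 to 16 erasers higher and 15 to 17 lower. The same fits gave 4706 to 4751 higher and 4621 to 4687 lower over all genes. The replicate block gave 20 higher and 41 lower, with writers at 4 and 26 and erasers at 16 and 15, against 4773 and 4712 over all genes. Same-numbered samples did not deviate together (correlations of 0, 0.02 and -0.01), so no pairing by number was seen. With 3 samples per group this cannot exclude a shared culture or day of small effect. No member changed direction while called. Of the 61 called members 53 kept their call in every alternative other than the assumed coefficients, 8 lost it in at least 1, and 9 others gained one. Under all 19 alternatives, 8 members stayed called: Kdm7a, Sirt3 and Sirt7 higher, and Hdac7, Hdac9, Hdac11, Sirt1 and Prmt3 lower. Depth limits the low members: Kdm4d, Prmt8 and the second Prmt1 identifier could not be tested.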
